A study of Homo sapiens with 4 samples.

Results

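The genes described here are 9 nuclear hormone receptor genes, taken by symbol from the 28930 gene symbols of an RNA-seq count table of MDA-MB-231 cells. MDA-MB-231 is a human breast cancer cell line of the triple-negative class with mesenchymal features. All 9 symbols were in the table. The set was chosen with earlier results of these data known, so counts over the 9 genes are descriptions. They are the estrogen receptor gene ESR1, the progesterone receptor gene PGR, the glucocorticoid receptor gene NR3C1, the vitamin D receptor gene VDR, the retinoic acid receptor genes RARA and RARG, the retinoid X receptor gene RXRA, and the orphan receptor genes NR2F2 (COUP-TFII) and ESRRA (estrogen-related receptor alpha). The study compared 2 samples of this line labelled control with 2 treated with an siRNA against hTrmt13, a tRNA methyltransferase encoded by TRMT13. It made 1 library of total RNA from each sample. The labels name no other allele, drug, hormone or time point. The siRNA sequence and dose and the hormone content of the medium were not stated in the labels. The comparison made here is of receptor RNA levels with and without the knockdown.

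Nuclear receptors are transcription factors whose DNA-binding domain recognises short response elements and whose ligand-binding domain binds a small lipophilic molecule and exchanges corepressors for coactivators. Steroid receptors such as those for estrogen, progesterone and glucocorticoid wait in a chaperone complex and bind DNA as homodimers. VDR and the retinoic acid receptors pair with RXR, while orphan receptors such as NR2F2 and ESRRA have no accepted physiological ligand. Triple-negative tumours are defined as lacking estrogen receptor and progesterone receptor protein, and HER2 protein excess or gene amplification.

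The libraries held between 9777267 and 13098985 counts, and a level of 1 CPM (counts scaled to a common library size, with TMM factors) rested on 9.59 to 13.4 counts. TRMT13 read 14.9 and 18.9 CPM in control against 3.51 and 4.79 CPM with its own siRNA, so every library went with its label. Across 13022 tested genes, 389 passed a Benjamini-Hochberg adjusted p under 0.05 in edgeR's quasi-likelihood test, which is 2.99% of them, with 1.03% higher and 1.96% lower in the knockdown. Leaving out control replicate 1 or 2 gave 678 or 729 genes, and leaving out knockdown replicate 1 or 2 gave 935 or 708. The labels do not state whether replicates were separate cultures, and the p-values therefore reflect the spread between these samples alone, which may be technical. In such bulk samples fewer cells of a kind and less RNA per cell cannot be told apart. The mesenchymal markers of the line (8 of 8 in the table, VIM among them) summed to between 4456 and 4800 CPM in control libraries and between 4438 and 4448 CPM in knockdown libraries. Single markers differed more than this sum: 5 of 8 stood at an unadjusted p under 0.05 (24% of all tested genes). Of these 8, 0 rose and 1, SPARC, fell (edgeR adjusted p = 0.0476), against 1.03% and 1.96% of all tested genes. The median log2 fold change was −0.47, with 5 negative and 3 positive values. They ran from −1.27 for LOX (edgeR adjusted p = 0.16) to 1.18. Of 7 blood markers 4 were at 0, CD3E, MS4A1 and HBB among them, and the sum stayed between 0.21 and 1.05 CPM. Of 8 fibroblast and endothelial markers, 7 were in the table and DCN was at 0. Their sum ran from 61.4 to 78.1 CPM in control libraries and from 33.2 to 51.2 CPM in knockdown libraries. Of 3 tested, 1 fell (1.96% of all tested genes) and 2 stood at an unadjusted p under 0.05 (24% of all). The one that fell was CDH5, with 63 and 49 counts in control and 0 and 2 in knockdown (log2 fold change −5.78, edgeR adjusted p = 0.0296). The part of these markers in the results below was not tested.

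Among the 9 receptors, NR3C1 rose 2.68-fold in the knockdown and was the 1 member past the threshold. NR2F2 averaged 63.5 CPM in control and 130.9 CPM with the knockdown, and RXRA 65.6 and 40.3 CPM, and neither passed. VDR, RARA, RARG and ESRRA differed by less than 1.5 times between the group means. ESR1 and PGR had no read in any library. The filter on low counts kept 7 of the 9 members and left out ESR1 and PGR, so 1 of 7 was called against 2.99% of all tested genes. At an unadjusted p under 0.05 there were 3 of 7, namely NR3C1, NR2F2 and RXRA, against 24% of all tested genes. The libraries of the groups did not overlap for 4 of 7 members, 2 above and 2 below, against 54.3% of all tested genes (27.5% above, 26.8% below), so that count is near the background. The median log2 fold change was −0.04 over the 7 members and 0.01 over all tested genes.

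**Figure D1:**
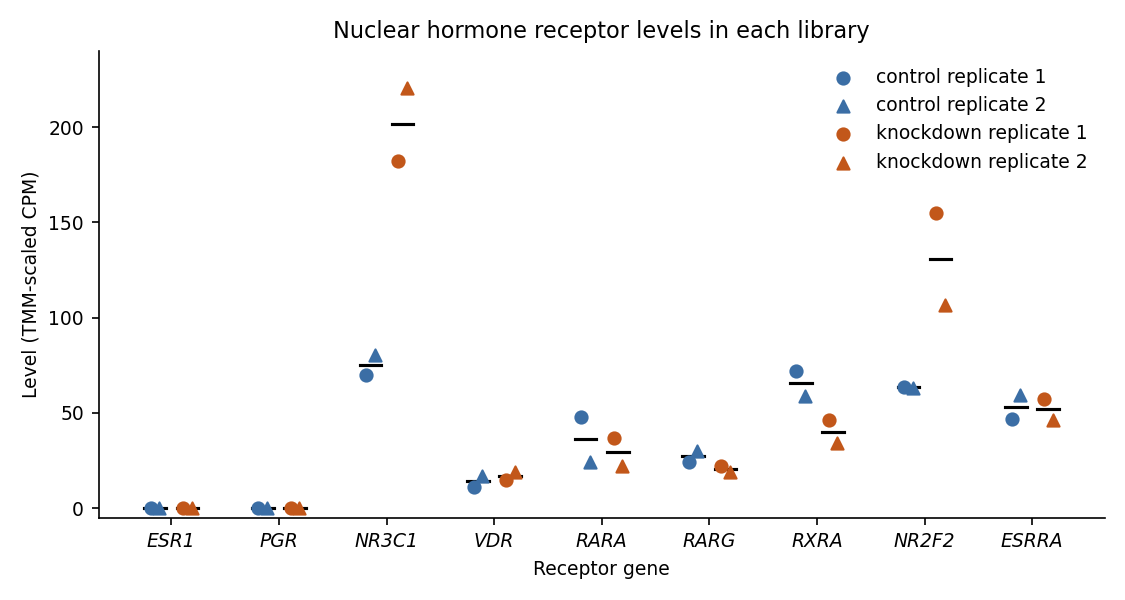
The plot shows the TMM-scaled CPM (linear axis) of the 9 receptor genes in each of the 4 libraries, with circles for replicate 1, triangles for replicate 2, blue for control, orange for knockdown and a black line at each group mean. NR3C1 and NR2F2 in the knockdown lie above both control libraries, RXRA and RARG lie below, and ESR1 and PGR sit at 0.

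The promoter sequences that follow are those of NR3C1, the member that rose, and of TSC22D3 and CRABP2, glucocorticoid and retinoid genes that fell and are described further on. They are RefSeq sequences on GRCh38.p14, 5′ to 3′ on the gene's strand. Each is the longest stretch within the 250 bases before an annotated start that no exon of GENCODE v29 covers, with at least 100 bases. Where a gene had such stretches both with and without a GC box, 1 of each kind is shown. Capitals mark the GC box GGGCGG or its reverse complement. The capitals would also mark AGGTCA, the core sequence read by most RXR partners, and AGAACA, a core sequence read by the glucocorticoid and progesterone receptors. They would mark the glucocorticoid response palindrome too, 2 cores of the latter kind facing each other. None of these is in the stretches shown.
NR3C1, chr5:143405356-143405605, minus strand, stretch with a GC box: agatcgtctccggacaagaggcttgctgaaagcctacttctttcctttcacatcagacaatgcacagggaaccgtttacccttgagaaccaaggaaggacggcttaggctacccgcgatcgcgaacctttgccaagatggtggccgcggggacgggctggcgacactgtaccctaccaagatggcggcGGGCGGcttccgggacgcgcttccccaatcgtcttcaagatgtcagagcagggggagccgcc
NR3C1, chr5:143435513-143435762, minus strand, stretch without one: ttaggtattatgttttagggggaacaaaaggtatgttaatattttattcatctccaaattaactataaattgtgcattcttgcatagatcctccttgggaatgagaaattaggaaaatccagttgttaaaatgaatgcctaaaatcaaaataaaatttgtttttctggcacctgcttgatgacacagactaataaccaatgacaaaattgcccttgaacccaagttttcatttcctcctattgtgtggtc
TSC22D3, chrX:107716546-107716689, minus strand, stretch with a GC box: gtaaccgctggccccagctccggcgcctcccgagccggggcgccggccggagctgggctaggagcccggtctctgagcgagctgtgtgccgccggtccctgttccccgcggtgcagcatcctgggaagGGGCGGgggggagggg
TSC22D3, chrX:107717136-107717312, minus strand, stretch without one: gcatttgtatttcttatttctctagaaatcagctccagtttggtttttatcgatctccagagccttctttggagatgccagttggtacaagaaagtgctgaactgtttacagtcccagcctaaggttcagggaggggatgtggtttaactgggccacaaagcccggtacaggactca
CRABP2, chr1:156705817-156706034, minus strand, no GC box: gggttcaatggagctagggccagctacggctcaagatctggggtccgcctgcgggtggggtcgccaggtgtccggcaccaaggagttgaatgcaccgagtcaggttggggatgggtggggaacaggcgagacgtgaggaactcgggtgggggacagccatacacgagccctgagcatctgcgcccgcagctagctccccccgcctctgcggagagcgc

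NR3C1 had 7 annotated starts in that table, of which 5 held a GC box within the 250 bases before the start, and the GC content of these windows ran from 32.8% to 82%. The 2 windows shown for NR3C1 had 59.6% and 32.8% GC. The counts are summed over the gene, so they do not tell which start was used. PGR had a GC box before 3 of 3 starts and ESR1 before 2 of 6, and both genes were at 0 here. The GC box was found in 42.6% of all 35116 promoter windows of the same length, AGGTCA in 12.1%, AGAACA in 12.4% and the palindrome in 0.328%, each searched on both strands. None of the 7 NR3C1 windows held any of the last 3. Among the other members, RARA had AGGTCA before 1 of 3 starts, and AGAACA stood before 1 of 2 RXRA starts and 1 of 6 ESR1 starts. Of the 9 members 8 matched the promoter table, and VDR did not.

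ESR1 encodes estrogen receptor alpha and PGR the progesterone receptor, itself a classical estrogen-induced gene. Each had 0 counts in control replicates 1 and 2 and 0 counts in knockdown replicates 1 and 2. A count of 0 allows up to 3 counts per library, which is 0.224 to 0.313 CPM depending on the library and covers counting error only. A difference between the groups was therefore not detectable at this depth. ESR2, which encodes estrogen receptor beta, had 28, 19, 24 and 23 counts in control 1, control 2, knockdown 1 and knockdown 2, about 2 CPM in each group. ERBB2, the HER2 gene of the triple-negative definition, was read at 123.8 and 111.9 CPM (control) against 166.2 and 122.5 CPM (knockdown), with a log2 fold change of 0.29 (edgeR adjusted p = 0.495, SE 0.24). The transcripts for both steroid receptors of the definition were thus at 0, while ERBB2 RNA was present.

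NR3C1 encodes the glucocorticoid receptor, a steroid receptor that most cell types make. It had 671 and 1039 counts in control and 1920 and 2948 counts with the knockdown. These are 70.0 and 80.3 CPM (control) against 182.4 and 220.6 CPM (knockdown). Both knockdown libraries lay above both control libraries, and the gap was larger than the distance between replicates in either group. The means were 75.1 ± 7.30 CPM and 201.5 ± 27.0 CPM (SD, n = 2 each), a log2 fold change of 1.42 (SE 0.22, 95% interval 0.89 to 1.96, edgeR adjusted p = 0.0363). The call remained in all 11 alternative settings tried, with log2 fold changes between 1.28 and 1.56 and adjusted p between 1.21e-07 and 0.0391. The mean level of NR3C1 was above that of 88.5% of tested genes, unadjusted for transcript length.

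NR3C1 took 5.95% and 6.97% of the reads of all 48 human nuclear receptor genes in control and 11.9% and 15.9% in knockdown. Its closest relative is NR3C2, which encodes the mineralocorticoid receptor. NR3C2 was at 11.7 and 11.9 CPM (control) against 22.7 and 32.3 CPM (knockdown), a log2 fold change of 1.22 (edgeR adjusted p = 0.0721, SE 0.29). That value did not pass in the 4 libraries, but did without knockdown replicate 1 (1.46, edgeR adjusted p = 0.00677), with no filter on low counts (1.23, 0.00605) and in DESeq2 (1.22, DESeq2 adjusted p = 0.0195). Within the pair, NR3C1 held 85.7% and 87.1% of the reads in control and 88.9% and 87.2% in knockdown, so the nearest libraries of the groups stood at 87.1% and 87.2%. The genes whose centred log2 CPM lay nearest to that of NR3C1 over the 4 libraries, out of 10851 that averaged 5 CPM or more, were WDR66, GTDC1 and POLR3GL. Their log2 fold changes were 1.46, 1.49 and 1.43, with edgeR adjusted p of 0.0554, 0.0435 and 0.0599. The GTDC1 call ended without control replicate 1 (1.42, 0.0669) and without knockdown replicate 2 (1.35, 0.0594). With 4 libraries such likeness describes the profile and no more.

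VDR encodes the receptor for the active form of vitamin D. It had 107 and 222 counts in control and 157 and 253 in knockdown, or 11.2 and 17.2 CPM against 14.9 and 18.9 CPM. The groups overlapped. The log2 fold change was 0.25 (SE 0.33, 95% interval −0.52 to 1.03, edgeR adjusted p = 0.678), and −0.013 without control replicate 1. VDR was the lowest of the detected members, with 33.0% of tested genes below it.

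RARA and RARG encode retinoic acid receptors alpha and gamma, which differ in where they are made and share their ligand. RARA was at 47.9 and 24.3 CPM (control) against 36.7 and 22.2 CPM (knockdown). The libraries of replicate number 1 were the higher in both groups and the groups overlapped. The log2 fold change of RARA was −0.29 (SE 0.40, 95% interval −1.24 to 0.66, edgeR adjusted p = 0.70), and leaving out control replicate 1 or knockdown replicate 2 gave 0.27 or 0.027. RARG was at 24.3 and 30.1 CPM (control) against 22.3 and 19.2 CPM (knockdown). Both knockdown libraries of RARG lay below the controls, by a distance smaller than that between the control libraries. Its log2 fold change was −0.39 (SE 0.26, 95% interval −1.01 to 0.23, edgeR adjusted p = 0.412). RARB, which encodes the beta receptor and is a classical retinoic acid target, had 7 and 18 counts in control and 22 and 36 in knockdown, with a log2 fold change of 1.14 (edgeR adjusted p = 0.218, SE 0.49). RARA gave 66.3% and 44.7% of the RARA and RARG reads in control and 62.2% and 53.6% in knockdown, so the replicates of control differed more than the groups did.

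RXRA encodes retinoid X receptor alpha, the shared dimer partner of VDR, the retinoic acid receptors and many others. It was at 72.2 and 59.1 CPM (control) against 46.2 and 34.3 CPM (knockdown), from 692, 765, 486 and 459 counts. Both knockdown libraries lay below both controls. The log2 fold change was −0.71 (SE 0.26, 95% interval −1.33 to −0.09), and the edgeR adjusted p of 0.168 did not pass, although the unadjusted p was 0.0312. RXRB, which encodes the beta partner, was at 69.3 and 50.1 CPM (control) against 66.5 and 60.5 CPM (knockdown), with a log2 fold change of 0.09 (edgeR adjusted p = 0.867, SE 0.25). RXRG, the gamma gene, had 0 counts in all 4 libraries. RXRA therefore gave 51.0% and 54.1% of the RXRA and RXRB reads in control and 41.0% and 36.2% in knockdown, with 95% exact binomial intervals of 48.3 to 53.7, 51.5 to 56.8, 38.2 to 43.8 and 33.6 to 38.9 in that order. These intervals cover counting error only. With 2 libraries against 2, an exact two-sided permutation test of such a share cannot go below p = 0.333, so the shift was not tested further.

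NR2F2 encodes COUP-TFII, an orphan receptor best known from mesenchymal, venous and steroid-responsive tissues. It had 612 and 818 counts in control and 1633 and 1426 in knockdown. The control libraries were almost equal at 63.8 and 63.2 CPM, and the knockdown libraries lay at 155.1 and 106.7 CPM, both above them. The log2 fold change was 1.04 (SE 0.25, 95% interval 0.44 to 1.65), with an edgeR adjusted p of 0.0738, just outside the threshold. It passed without knockdown replicate 2 (1.29, edgeR adjusted p = 0.0277), with no filter on low counts (1.04, 0.00382) and in DESeq2 (1.04, DESeq2 adjusted p = 0.0172). It was 0.76 without knockdown replicate 1. Its relative NR2F1, which encodes COUP-TFI, was at 80.3 and 65.5 CPM (control) against 121.4 and 69.2 CPM (knockdown), with overlapping groups and a log2 fold change of 0.39 (edgeR adjusted p = 0.494, SE 0.31). NR2F2 gave 44.3% and 49.1% of the reads of this pair in control and 56.1% and 60.7% in knockdown.

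**Figure D2:**
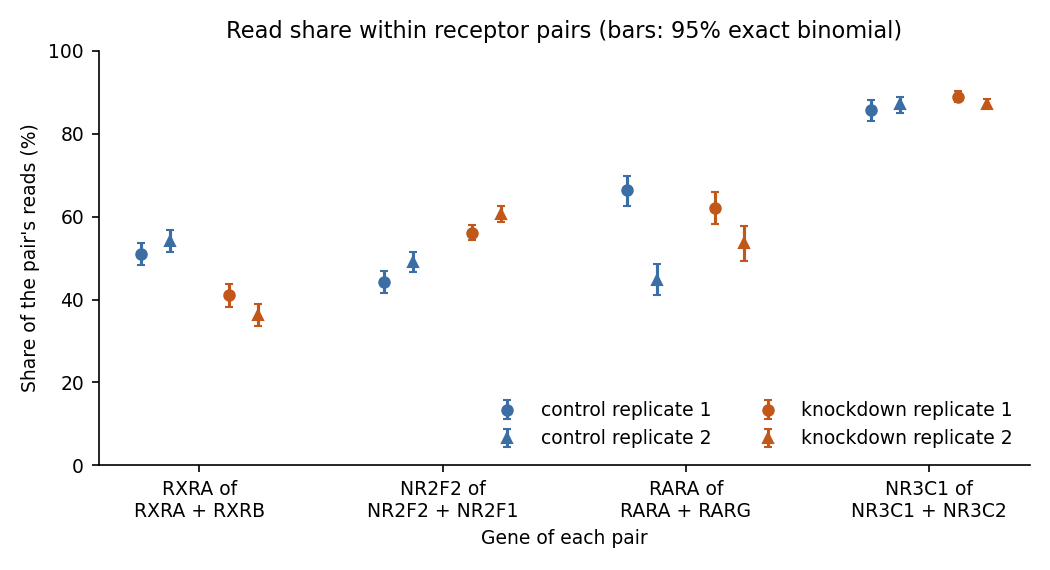
The plot shows, for each library, the percent of a receptor pair's reads that belong to the first gene, with 95% exact binomial intervals that cover counting error only (blue for control, orange for knockdown, circles for replicate 1, triangles for replicate 2). The RXRA share is 51.0% and 54.1% in control and 41.0% and 36.2% in knockdown, the NR2F2 share is higher in knockdown, the RARA share overlaps between groups, and the NR3C1 share lies between 85.7% and 88.9% throughout.

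ESRRA encodes estrogen-related receptor alpha, which does not bind estrogen and works with PGC-1 coactivators on mitochondrial genes. It was at 47.0 and 59.3 CPM (control) against 57.2 and 46.5 CPM (knockdown), and the groups overlapped. The log2 fold change was −0.04 (SE 0.25, 95% interval −0.63 to 0.56, edgeR adjusted p = 0.949), and leaving out control replicate 2 or knockdown replicate 2 gave 0.14 or 0.10. In GENCODE v29, 284 exonic bases of ESRRA overlap TRMT112, a gene on the opposite strand whose protein is a partner of several methyltransferases. Without a known strand setting the reads of this overlap cannot be assigned. TRMT112 was at 106.2 and 107.6 CPM (control) against 104.0 and 111.3 CPM (knockdown). No other overlapping gene of that annotation, among them RARA-AS1 and PGR-AS1, was in the count table.

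Levels of different genes can be set side by side only per transcript length, here CPM per kilobase of the union of a gene's GENCODE v29 exons. In control the order was ESRRA (15.5 and 19.6 CPM per kilobase), NR2F2 (9.88 and 9.79), NR3C1 (7.63 and 8.75), RARA (10.1 and 5.15), RXRA (6.51 and 5.33), RARG (4.74 and 5.86) and VDR (1.97 and 3.02). The ranges of RARA overlapped those of NR2F2, NR3C1, RXRA and RARG, and those of RXRA and RARG overlapped each other. ESRRA stood apart at the top and VDR at the bottom. In knockdown NR3C1 (19.9 and 24.1), NR2F2 (24.02 and 16.5) and ESRRA (18.9 and 15.4) formed the upper group. The range of NR2F2 overlapped those of NR3C1 and ESRRA, while NR3C1 lay above ESRRA without overlap. VDR (2.63 and 3.34) remained last by its mean. The lengths are uncertain for genes with several forms: with the longest protein-coding transcript in place of the union, RXRA moved from place 5 to place 1 in control and 3 of 7 members kept their place.

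Of the 39 other human nuclear receptor genes, 24 were tested and 0 passed in edgeR, 8 of them at an unadjusted p under 0.05 (24% of all tested genes). DESeq2 called 2 of them higher, against 457 higher of the 13213 genes tested there. The median log2 fold change of these 24 receptors was 0.20, with 14 positive and 10 negative values, and 0.024 without knockdown replicate 1. PPARG, which encodes the adipogenic receptor PPAR-gamma, had the smallest p of these and was at 93.7 and 111.4 CPM (control) against 211.5 and 207.3 CPM (knockdown). Its log2 fold change was 1.03 (SE 0.21, edgeR adjusted p = 0.0576), and it passed without knockdown replicate 1 (1.02, edgeR adjusted p = 0.0256), with no filter on low counts (1.03, 0.00295) and in DESeq2 (1.02, DESeq2 adjusted p = 0.00839). Among all 48 receptor genes, 7 had no read in any library. NR3C1 was the 1 gene called of 31 tested, against 2.99% of all tested genes, so that count is near the background. The 9 members together held 28.6% and 28.95% of the reads of all 48 in control and 33.5% and 33.8% in knockdown.

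**Figure D3:**
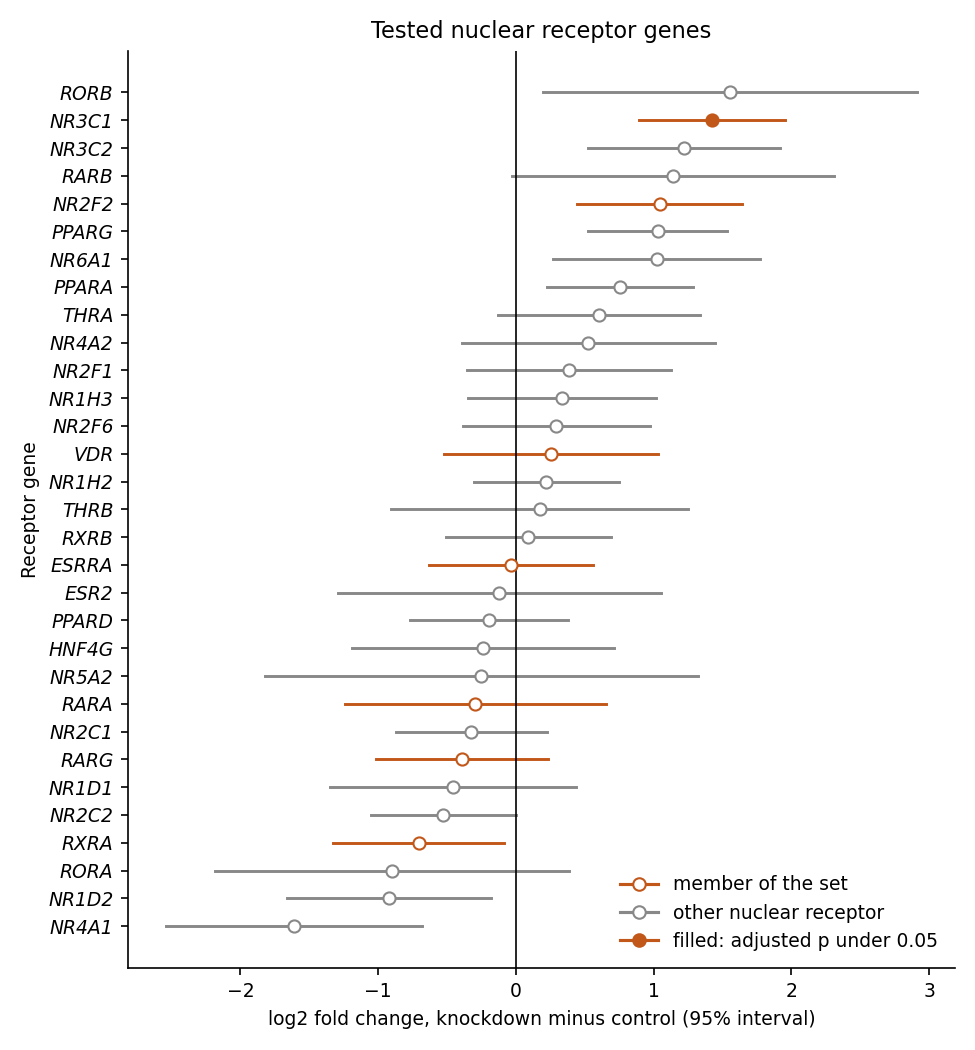
The plot shows the log2 fold change (knockdown minus control) of the 31 tested nuclear receptor genes with its 95% interval from edgeR, members in orange and other receptors in grey, with a filled point where the adjusted p is under 0.05. NR3C1 at 1.42 is the filled point, the interval of NR2F2 also lies above 0, and that of RXRA lies below 0, both with adjusted p over 0.05.

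Coactivators and corepressors are cofactors that the receptors share. Of 18 coactivators, all tested, 0 passed in edgeR (2.99% of all tested genes) and 3 stood at an unadjusted p under 0.05 (24% of all). DESeq2 called 1 lower, against 673 lower of the 13213 genes tested there. The median log2 fold change of the coactivators was −0.08 (−0.15 to −0.0030 with 1 library left out). NCOA7 was at 42.2 and 20.5 CPM on average (log2 fold change −1.04, SE 0.28, edgeR adjusted p = 0.0941, DESeq2 adjusted p = 0.0369), and CARM1, an arginine methyltransferase of coactivator complexes, at 75.9 and 126.7 CPM (0.74, SE 0.21, adjusted p = 0.108). Of 11 corepressor genes 10 were tested, 1 rose and 1 fell (1.03% and 1.96% of all tested genes), 4 stood at an unadjusted p under 0.05 (24% of all), and the median was −0.08. TBL1X, a core subunit of nuclear receptor corepressor complexes, was at 62.3 and 68.6 CPM (control) against 221.4 and 236.4 CPM (knockdown), a 3.50-fold rise (edgeR adjusted p = 0.0264). BCOR, a Polycomb-linked corepressor, fell 2.56-fold from 85.6 and 68.2 CPM to 30.1 and 30.0 CPM (edgeR adjusted p = 0.0424), a call that ended without control replicate 1 (log2 fold change −1.18, adjusted p = 0.088). NCOR1 did not pass, at a log2 fold change of −0.28.

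The chaperones that hold steroid receptors ready for ligand summed over 14 genes to 5927 and 7451 CPM (control) against 6779 and 7336 CPM (knockdown). Of these 14, all tested, 0 passed in edgeR and 0 in DESeq2, 2 stood at an unadjusted p under 0.05 (24% of all tested genes), and the median was 0.19. These 2 were PPID, the cyclophilin of the receptor complex (49.4 and 80.3 CPM on average, log2 fold change 0.70, edgeR adjusted p = 0.12), and the kinase cochaperone gene CDC37 (284.8 and 481.0 CPM, 0.76, adjusted p = 0.124). HSP90AA1 and HSP90AB1, the HSP90 genes, stood at −0.04 and −0.14. The list's median ran from 0.04 without control replicate 1 to 0.52 without control replicate 2.

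Genes known to respond to the glucocorticoid receptor included 1 that fell and 0 that rose, against 1.96% and 1.03% of all tested genes. Of 16 in the list 14 were tested, 6 stood at an unadjusted p under 0.05 (24% of all), and 9 of 14 values were negative with a median of −0.64, against 0.01 over all tested genes. Without control replicate 2 and without knockdown replicate 1 the medians were −0.94 and −0.94. Without control replicate 1 the median was −0.38. DESeq2 called 4 lower and 1 higher in the list, against 673 and 457 of 13213 genes tested there. With no filter on low counts edgeR called 4 lower and 2 higher, against 1123 and 826 of 18632. TSC22D3, which encodes the anti-inflammatory leucine zipper GILZ, was at 37.0 and 27.3 CPM (control) against 4.94 and 5.99 CPM (knockdown). This is a 5.86-fold fall (log2 fold change −2.55, SE 0.31, edgeR adjusted p = 0.0272). It kept its call in all 11 alternative settings. The following were named after their values were seen. PER1, a circadian repressor gene, was at 19.4 and 21.9 CPM (control) against 7.79 and 8.90 CPM (knockdown), with a log2 fold change of −1.31 (edgeR adjusted p = 0.0594). It passed with no filter on low counts (0.00529) and in DESeq2 (DESeq2 adjusted p = 0.0131), and with any 1 library left out the edgeR adjusted p ran from 0.0638 to 0.141. KLF9 was at 9.07 and 6.96 CPM against 1.90 and 3.14 CPM (−1.65, edgeR adjusted p = 0.0743). It passed without control replicate 2 (−1.83, edgeR adjusted p = 0.0346), with no filter (−1.64, 0.00247) and in DESeq2 (−1.66, DESeq2 adjusted p = 0.0348), and not with any other library left out (edgeR adjusted p 0.0601 to 0.139). DUSP1, which encodes a MAP kinase phosphatase, lay the other way at 43.9 and 39.95 CPM against 84.7 and 74.6 CPM (0.93, adjusted p = 0.0741). FKBP5, a widely used readout of the receptor, was at 14.5 and 35.9 CPM against 14.2 and 22.9 CPM, with overlapping groups (−0.45, adjusted p = 0.604). ZBTB16 had no read. Several of these genes also answer to other signals, and hormone exposure was not measured.

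**Figure D4:**
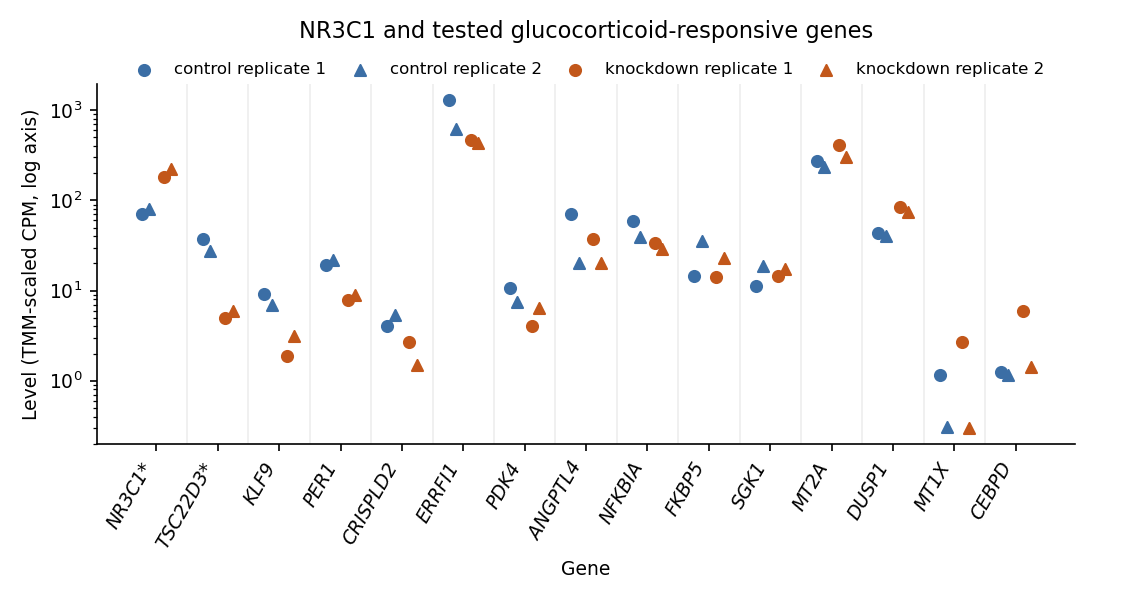
The plot shows TMM-scaled CPM on a log axis in each library for NR3C1 and the 14 tested glucocorticoid-responsive genes, ordered by fold change, with an asterisk for an adjusted p under 0.05 (blue for control, orange for knockdown, circles for replicate 1, triangles for replicate 2). NR3C1 is higher in both knockdown libraries, TSC22D3, KLF9 and PER1 are lower in both, and DUSP1 is higher in both.

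Retinoid genes held 2 of the called genes. Of 21 in the list of retinoid handling and target genes 11 were tested, 0 rose and 2 fell (1.03% and 1.96% of all tested genes), 5 stood at an unadjusted p under 0.05 (24% of all), and the median was −0.67. It moved to −0.15 without control replicate 1, −0.36 with the 5 CPM filter, and −1.004 without knockdown replicate 1. DESeq2 called 3 lower and 0 higher in the list, against 673 and 457 of 13213 genes tested there. With no filter on low counts edgeR called 4 lower and 0 higher, against 1123 and 826 of 18632. CRABP2, which carries retinoic acid to its nuclear receptors, was at 27.4 and 23.2 CPM (control) against 3.23 and 4.86 CPM (knockdown), a 6.20-fold fall (edgeR adjusted p = 0.0277) called in all 11 alternative settings. CYP26B1, a hydroxylase that degrades retinoic acid, fell 2.64-fold from 48.5 and 43.5 CPM to 18.9 and 15.9 CPM (edgeR adjusted p = 0.0424). The CYP26B1 call ended without control replicate 1 (log2 fold change −1.32, adjusted p = 0.0523) and without knockdown replicate 2 (−1.28, 0.0548). These 2 act in opposite ways on retinoic acid supply to the receptors, 1 delivering it and 1 removing it. Retinoic acid was not measured, and other genes of the list also bear on its supply. Of the 11 tested values 7 were negative and 4 positive. ALDH1A3 had 52 and 115 counts in control and 5 and 28 in knockdown (log2 fold change −2.43, edgeR adjusted p = 0.0882). The receptors RARA, RARG and RXRA themselves did not pass.

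**Figure D5:**
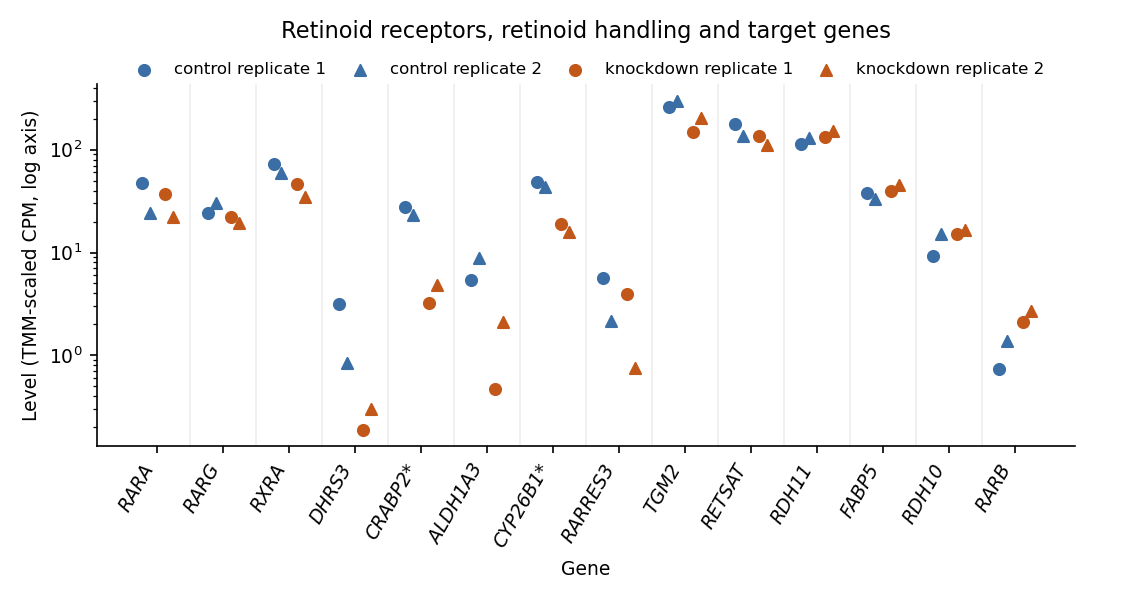
The plot shows TMM-scaled CPM on a log axis in each library for the retinoid receptor genes RARA, RARG and RXRA and the 11 tested retinoid handling and target genes, ordered by fold change, with an asterisk for an adjusted p under 0.05 (colours and shapes mark group and replicate as in the key). CRABP2 and CYP26B1 are lower in both knockdown libraries, and RARB, at a few CPM, is higher in both.

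Among 9 vitamin D targets 3 were tested and 1 fell (1.96% of all tested genes), with a median of −0.49 (−1.14 to −0.024 with 1 library left out). It was CYP24A1, the hydroxylase that degrades active vitamin D and the most used readout of VDR. CYP24A1 was at 9.91 and 10.4 CPM (control) against 2.28 and 2.84 CPM (knockdown), from 95, 134, 24 and 38 counts. This is a 3.93-fold fall (log2 fold change −1.97, SE 0.34, edgeR adjusted p = 0.0415), called in all 11 alternative settings, while VDR itself did not pass. Of 19 genes of steroid and vitamin D metabolism, a list that also holds CYP24A1, 13 were tested, with a median of 0.06. Of these 13, 0 rose and 2 fell (1.03% and 1.96% of all tested genes), and 4 stood at an unadjusted p under 0.05 (24% of all). That median was −0.50 with no filter on low counts and between −0.39 and −0.034 with 1 library left out. The other called gene was STS, the sulfatase that frees steroids from their sulfate esters, at 38.8 and 26.7 CPM (control, 372 and 345 counts) against 40 and 56 counts (knockdown), 8.15-fold lower (edgeR adjusted p = 0.0252). STS also kept its call in all 11 settings.

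Estrogen-responsive and luminal genes were read in part although ESR1 was at 0. Of 19 in the list 14 were tested, 0 passed in edgeR and 3 stood at an unadjusted p under 0.05 (24% of all tested genes). DESeq2 called 1 lower, against 673 lower of the 13213 genes tested there. The list's median was −0.45 with 11 negative and 3 positive values. AGR2, a secretory protein disulfide isomerase, was at 94.0 and 44.6 CPM (control) against 31.1 and 27.2 CPM (knockdown) (log2 fold change −1.25, SE 0.37, edgeR adjusted p = 0.114). It passed without control replicate 2 (−1.69, edgeR adjusted p = 0.00264) and without knockdown replicate 1 (−1.35, 0.00774), with no filter on low counts (−1.24, 0.00121) and in DESeq2 (−1.26, DESeq2 adjusted p = 0.0189). Without control replicate 1 it was −0.61 (edgeR adjusted p = 0.525). The 11 luminal markers, which share genes with this list, summed to 1455 to 1621 CPM in control libraries and 1221 to 1406 CPM in knockdown libraries, and their part in these values was not tested. GATA3, a luminal transcription factor gene, was at 8.45 and 8.73 CPM against 4.84 and 4.19 CPM (−0.93, edgeR adjusted p = 0.149). TFF1, a classical estrogen receptor target, had 7, 5, 1 and 0 counts and was not tested. Of 9 ESRRA targets 8 were tested, 0 passed in edgeR and 0 in DESeq2, 2 stood at an unadjusted p under 0.05 (24% of all tested genes), and the median was 0.25. Against 826 higher of 18632 genes tested with no filter on low counts, 2 of these targets were higher there, with a median of 0.13. SDHB, a succinate dehydrogenase subunit gene, was 1 of these, at 50.9 and 79.9 CPM (control) against 109.1 and 118.5 CPM (knockdown), with a log2 fold change of 0.80 (edgeR adjusted p = 0.144, SE 0.27), and it passed with no filter (0.0429).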

How the data were processed

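The 4 libraries (2 control, 2 knockdown) were grouped by the sample labels. The authors deposited unnormalized whole-number counts for each gene symbol. Tools listed in the submitters' processing notes were STAR 2.5.2b, HTSeq 0.6.1, cutadapt and limma, and builds GRCh37 and hg19, with no role for any. No source used here gives the annotation or strand setting. Counts were tested in edgeR 4.0.16 (R 4.3.3) with TMM scaling, filterByExpr (minimum count 10, minimum total 15), the quasi-likelihood test and Benjamini-Hochberg adjustment over all 13022 genes; the script was tested on simulated counts. The SE and 95% interval of a log2 fold change come from that fit. Replicates differed by more than counting noise (chi-square over degrees of freedom 40.4 for control, 44.5 for knockdown), so none was treated as a library deposited again; this does not show that they were separate cultures.

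The members and lists were chosen with earlier results of these data known, so list counts and medians are descriptions. Named genes were all members, TRMT13, up to 3 called genes per list and direction or otherwise the 2 with the smallest p, 3 nearest profiles, and overlapping genes. Chosen after their values were seen were paralogues of members (RXRB, RXRG, NR2F1, RARB, ESR2), PER1, KLF9, DUSP1, FKBP5, ZBTB16, ERBB2 and NCOR1. So were the HSP90 genes, TFF1, ALDH1A3 and the markers SPARC, LOX and CDH5. Alternatives were DESeq2 1.42.0 size factors and test, upper-quartile scaling, library size alone, other filters, a replicate block, each library left out and, chosen after seeing the data, another gene length. Lengths and overlaps are from GENCODE v29 (GRCh38), promoters from RefSeq GRCh38.p14, and no coordinate was joined to the hg19 counts. Some results the naming rule selects are not reported here.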

Additional observations from a re-analysis of the deposited data

How the results depend on the processing

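Over 77 refits of the 7 tested members, 67 kept direction and side of the threshold, 5 newly passed and 5 changed sign, all 5 among members far from the threshold. NR2F2 passed with DESeq2's own test (1.04), no filter on low counts (1.04) and the replicate block (1.02), and RXRA passed with the block (−0.71, adjusted p = 0.00101). Other named genes passed with the block too, where 5227 of 13022 genes did. Among them were PER1 (edgeR adjusted p = 2.29e-05), KLF9 (0.000158), PPARG (1.13e-05), NR3C2 (3.65e-05) and AGR2 (2.35e-05). With 1 library left out, NR2F2 ranged from 0.76 to 1.29, RXRA from −0.93 to −0.51, NR3C1 from 1.28 to 1.56, RARG from −0.53 to −0.23, ESRRA from −0.19 to 0.14, RARA from −0.70 to 0.27 and VDR from −0.013 to 0.60. Sign changes were those of ESRRA (0.14 without control replicate 2, 0.10 without knockdown replicate 2), RARA (0.27 without control replicate 1, 0.027 without knockdown replicate 2) and VDR (−0.013 without control replicate 1). Other named genes that changed sign with 1 library left out ranged from −0.95 to 0.36 (FKBP5), −0.13 to 0.35 (RXRB), −0.068 to 0.74 (NR2F1) and −0.039 to 0.066 (TRMT112, also −0.0097 with upper-quartile scaling). The genes changed in all numbered 1130 with DESeq2, 1949 with no filter, 5227 with the replicate block, and 678 to 935 with 1 library left out. Those in the pathway lists numbered 7 of 126 tested as reported, where 389 of all 13022 tested genes were called. They numbered 16 of 127 with DESeq2, where 1130 of 13213 genes were called. With no filter they numbered 25 of 158, against 1949 of 18632. The replicate block gave 58 of 126, against 5227 of 13022. The causes of these differences were not tested.

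The replicate numbers are shared by both groups in the labels, which do not say that they mark a shared culture or day, although same-numbered libraries carry neighbouring serial numbers in their titles. Deviations of same-numbered libraries had r = 0.639, taken over genes, which are no independent replicates. ESR1 and PGR had no fold change under any setting, since no library held a read. Genes of a few counts, such as RARB, ESR2 and TFF1, are limited by depth.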
